A study of Mus musculus with 6 samples.

Results

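The chromosome 6 block is a run of neighbouring genes that was picked out because their RNA was low in B64, a resistant line of the mouse colon carcinoma CT26. Its members were the protein-coding genes that start between positions 87628424 and 115762410 of chromosome 6 (mm10, GENCODE M21 gene models), a span of 28.1 Mb, and that had a mean normalized count of at least 10 over the 6 libraries. A normalized count is the RSEM expected count of a gene divided by the size factor of its library. Of 163 protein-coding genes that start in the interval, 87 were members, 75 lay under the minimum and 1 was excepted by the rule. The members were 87 of 53801 genes in the tables and 87 of 10948 protein-coding genes above the same minimum. The block was chosen by the log2 ratios of the B64 to the parental libraries, so its values in B64 are given as a description and no test is read from them.

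All 6 libraries came from CT26 cells of BALBc origin that carried DNA barcodes, and the labels describe them as derived from tumors. The study's methods state that the RNA was taken from cells in culture, and that the parental line had itself been recovered from tumors. The parental group (2 libraries) was the barcoded bulk line. B04 and B64 (2 libraries each) were lines grown out from single cells of engrafted tumors and are labelled as resistant to anti-PD-1, an antibody that blocks an inhibitory receptor of T cells. Each resistant line is therefore 1 clone, no treatment is given in the labels, and nothing in them says that replicates A and B of a group were separate cultures, so p-values measure only the spread between these libraries, which may be technical.

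Genes that lie side by side on a mouse chromosome mostly have unrelated functions. The block holds genes for the entry of proteins into the endoplasmic reticulum, for transport vesicles, for DNA repair and for chromatin, next to receptors, matrix genes and a large family of vomeronasal receptor genes, which detect pheromones in the nose. The members are described here first by position and then by role.

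The libraries held 19409204 to 23472012 expected counts and 10970 to 11208 genes at a TPM (transcript abundance scaled by gene length and library) of 1 or more. Sequenced fragments, read as gene length minus effective length, were longer in both parental libraries and B04 replicate A (271.8 to 277.3 bases) than in B04 replicate B and both B64 libraries (220.8 to 246.2 bases). Fragment length thus separated parental from B64 and cannot be told apart from that comparison. Of 7 epithelial markers only Krt18 reached a TPM of 1, and Epcam, Cdh1, Krt8, Krt19, Vil1 and Cdx2 did not. The summed TPM of 7 leukocyte markers was 10.5 to 12.2 in parental and B04 and 36.6 to 40.2 in B64, with Cd68 the only 1 of the 7 at a TPM of 1 or more. The part of fragment length and of these markers in the values below was not tested, except where a value without them is given.

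Where the shift in B64 began and ended depended on the fit. With 2 change points placed by least squares over chromosome 6, the low segment ran from H1fx (start 87980421) to Clstn3 (124430759 to 124464794), which is past the end of the block, and held 121 genes with a median log2 ratio to parental of -0.30, against 0.07 outside. H1fx, a linker histone gene, had only 29.6 and 52.3 normalized counts in parental, 0.0 and 1.0 in B04 and 3.4 and 1.1 in B64. With absolute deviations in place of squares, which give such extreme genes less weight, the segment ran from Chchd6 (chr6:89383146-89595652) to Sec13 (chr6:113728062-113740743), held 62 genes over 24.4 Mb and had a median of -0.47, against 0.04 outside. Running medians placed the first low gene at Txnrd3 or Zxdc and the last at Brpf1, Tada3 or Emc3, all inside that segment. They took the longest run under a bound of -0.23, which was set from the B64 median of that same segment. Their agreement with it was therefore partly built in. The stretch from Chchd6 to Sec13 is called the core here. It was chosen after its values were seen.

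**Figure D1:**
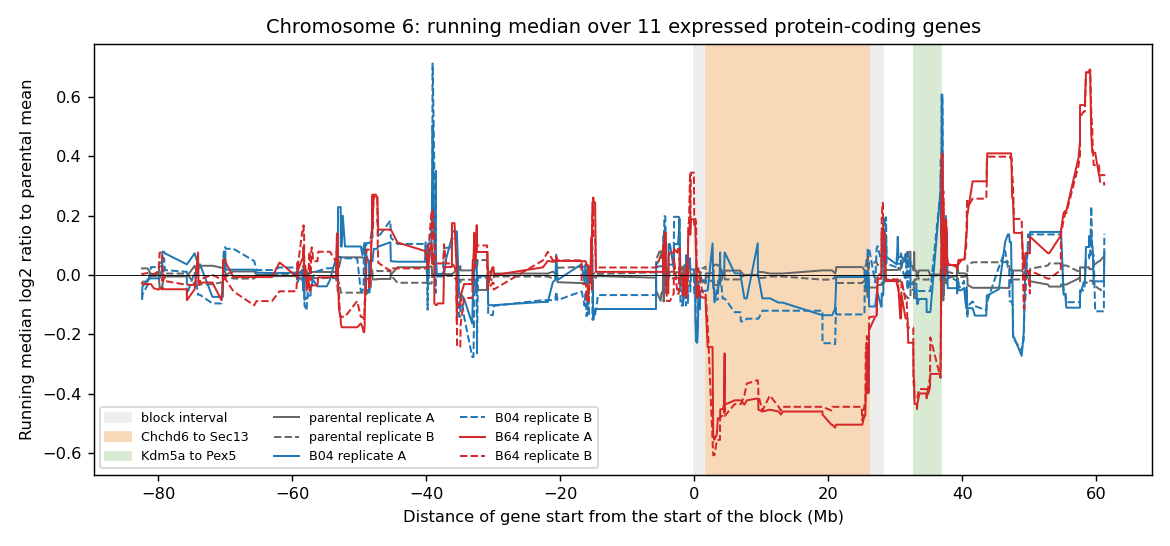
Running median over 11 expressed protein-coding genes of the log2 ratio to the parental mean along chromosome 6, for each of the 6 libraries, against the distance from the start of the block in Mb. Both B64 libraries drop between Chchd6 and Sec13, where their medians over the 62 genes are -0.45 and -0.45, and again between Kdm5a and Pex5, while the B04 libraries have core medians of -0.01 and -0.06.

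The neighbours of the core mark its edges. Plxna1, a semaphorin receptor gene that ends at 89362620 just before Chchd6, had 3456 and 3074 normalized counts in parental, 3510 and 3205 in B04 and 3183 and 3233 in B64. Chchd6, which encodes a protein of the mitochondrial cristae junctions, had 667 and 719 in parental, 639 and 684 in B04 and 446 and 450 in B64. The groups of Plxna1 overlapped, whereas both B64 libraries of Chchd6 lay below all 4 others, with a log2 fold change against parental of -0.63 (SE 0.13). At the other edge, Sec13, a coat protein of vesicles that leave the endoplasmic reticulum, had 2743 and 2791 in parental, 2517 and 2556 in B04 and 1967 and 1931 in B64, a log2 fold change of -0.51 (SE 0.07). Atg7, an enzyme of autophagy that starts at 114643097, had 1315 and 1249 in parental, 1187 and 1209 in B04 and 1589 and 1462 in B64, so the next expressed gene after Sec13 was high rather than low in B64 (0.25, SE 0.09).

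The promoters of both edge genes of the core and of Camk1, a core gene that was not low, are shown. The edges are those of the fit by absolute deviations, and other fits moved them. A link of promoter sequence to the shift was not tested. They are the bases just before the gene starts in RefSeq, on GRCm38.p6, with bases inside the GENCODE gene left out. Capitals mark the CCAAT box, the GC box (GGGCGG) and the TATA box (TATAAA) on either strand, and all 3 genes lie on the minus strand, at chr6:89595653-89595902, chr6:113343985-113344172 and chr6:113740744-113740931.
Chchd6: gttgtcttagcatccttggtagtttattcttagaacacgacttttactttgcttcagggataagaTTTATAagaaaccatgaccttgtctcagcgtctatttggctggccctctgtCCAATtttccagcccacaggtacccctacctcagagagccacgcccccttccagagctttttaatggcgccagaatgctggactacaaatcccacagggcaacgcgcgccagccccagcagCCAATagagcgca
Camk1: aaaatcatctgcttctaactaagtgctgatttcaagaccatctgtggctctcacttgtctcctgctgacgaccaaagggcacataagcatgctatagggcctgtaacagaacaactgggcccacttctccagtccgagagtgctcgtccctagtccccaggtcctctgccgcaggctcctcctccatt
Sec13: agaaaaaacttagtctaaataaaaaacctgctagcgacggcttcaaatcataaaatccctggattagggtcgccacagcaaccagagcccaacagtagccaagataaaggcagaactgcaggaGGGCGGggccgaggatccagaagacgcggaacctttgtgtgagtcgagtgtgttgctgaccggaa

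Over the 250 bases before the start, the CCAAT box was present in 33.3% of 51 core promoters with a table entry and in 37.7% of 8679 promoters of expressed protein-coding genes. The GC box was in 62.7% and 61.9% and the TATA box in 7.84% and 5.81%. The shares were close, and the median number of CpG was 17.0 in both sets.

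Across all 87 members the median log2 fold change of B64 against parental was -0.30 (interquartile range -0.53 to -0.03), against -0.01 over all protein-coding genes above the minimum. DESeq2 called 42 members lower and 3 higher at an adjusted p under 0.05, where 7.45% of 13218 genes tested were called lower and 8.87% higher. Both B64 libraries lay below both parental libraries for 60 members, where the same held for 30.9% of genes tested. edgeR's quasi-likelihood test called 52 members in either direction, where it called 24.6% of all genes. With the fragment-length class as a term in DESeq2, 11 members were called in all, in place of 45. Of all genes tested, 340 of 12855 were then called, in place of 2157 of 13218. The member median was -0.27 and that of the core -0.40. With the effective lengths as offsets the member median was -0.21. Within the short-fragment class, where B64 can be set against B04 replicate B alone, the core median was -0.35 in each B64 library.

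The core was cut by these same B64 ratios, so a low core beside higher ends was built into the choice. The values that follow are a description. The 62 core genes had a median of -0.47, or 0.724 of the parental level, with 56 of 62 below 0, where 51.6% of all expressed protein-coding genes were. DESeq2 called 39 of them lower and 0 higher, where 7.45% of 13218 genes tested were called lower and 8.87% higher. The 18 members on the centromere side had a median of 0.09 with 3 called lower and 2 higher, and the 7 on the telomere side a median of -0.07 with 1, Atg7, called higher. The 20 expressed genes before the block had a median of 0.01, the 20 after it -0.03 and the 421 other expressed genes of chromosome 6 a median of 0.04. Summed over the core, normalized counts were 85517 and 86264 in parental, 82836 and 81875 in B04 and 64630 and 64891 in B64.

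**Figure D2:**
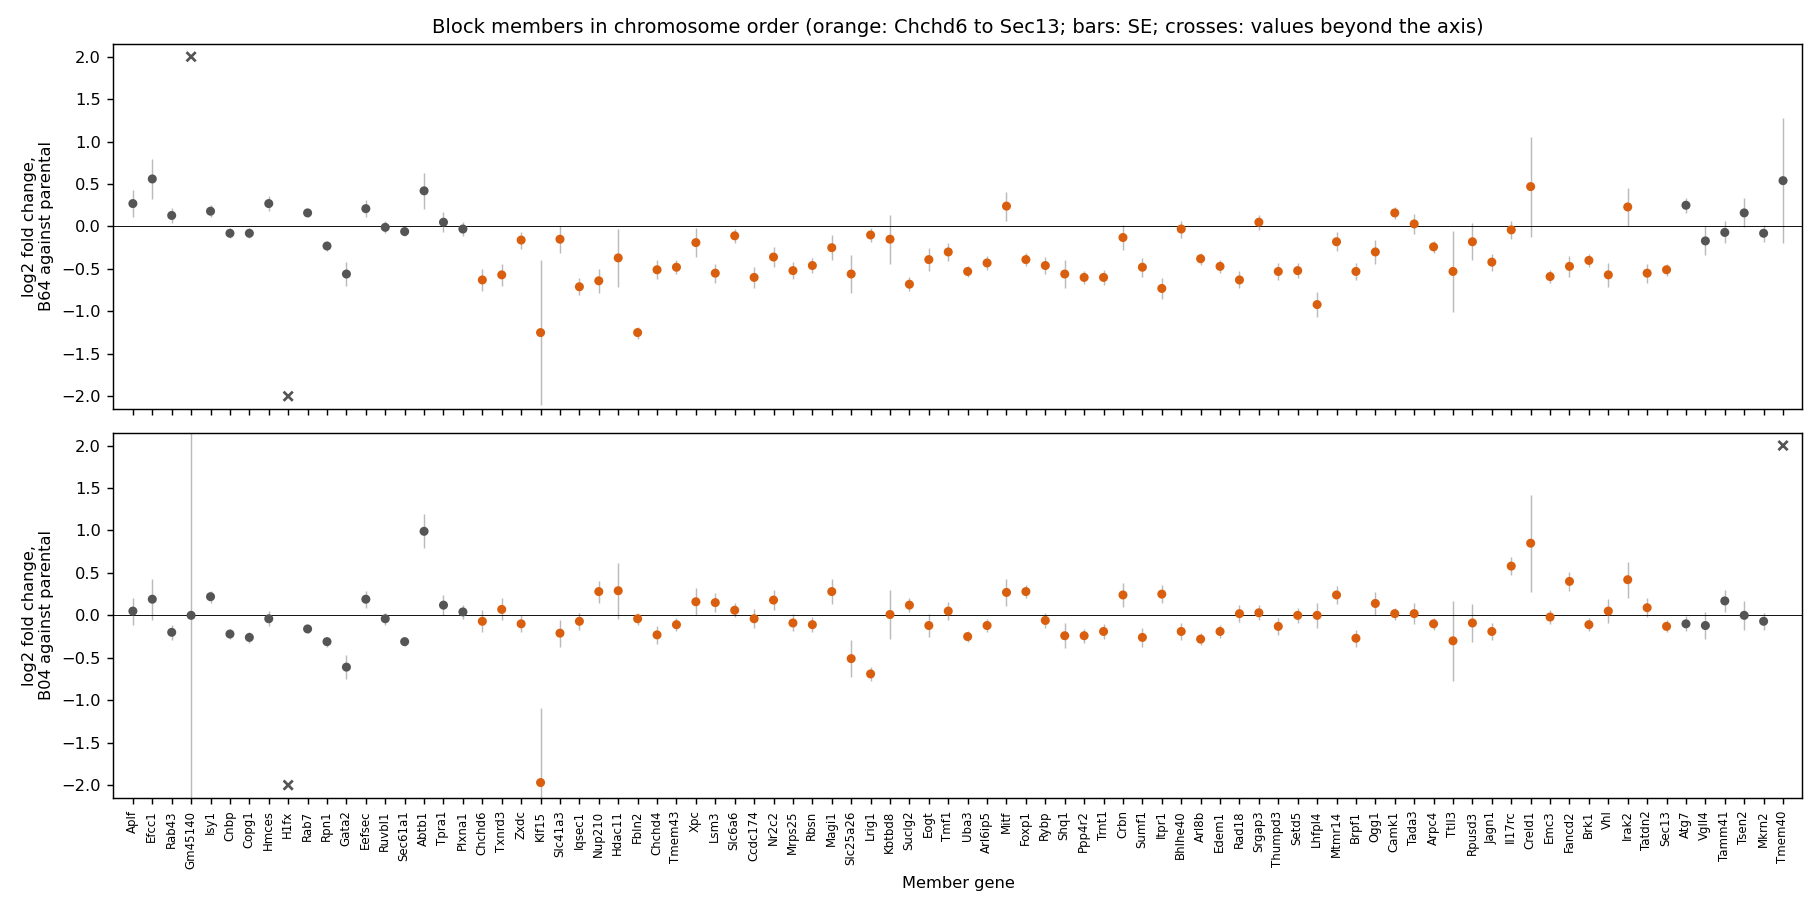
The log2 fold change against parental of the members reported here, in chromosome order, in B64 above and B04 below, with bars for the SE and crosses for values beyond the axis. In B64, 56 of the 62 core genes in orange lie below 0, and in B04, 34 of 62 do, where 51.2% of all expressed protein-coding genes do.

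Within the core the shift was similar from end to end. In 5 groups of 12 or 13 neighbouring genes the B64 median was -0.55, -0.39, -0.45, -0.39 and -0.45 in order of position. Of 58 core genes with a mean count of at least 100, 36 lay between -0.75 and -0.35 and 7 between -0.1 and 0.3. The median was -0.52 for the 16 core genes of lowest GC content and -0.19 for the 15 of highest, where all protein-coding genes of the same GC ranges had medians of -0.04 and 0.03. With the trends of each library with GC content and gene length removed, the core medians of the B64 libraries were -0.45 and -0.44.

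**Figure D3:**
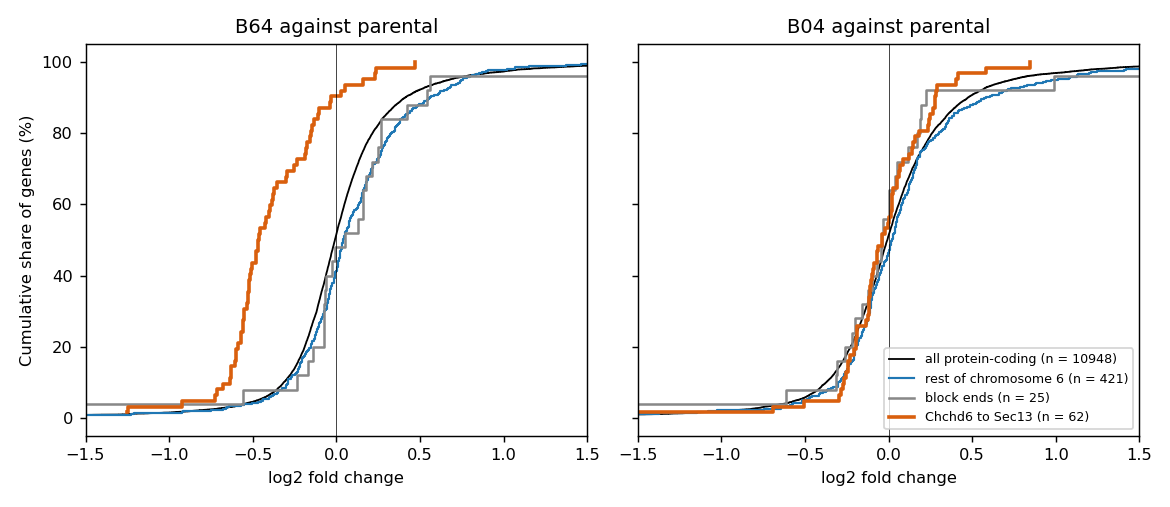
Cumulative share of genes in percent against the log2 fold change, in B64 on the left and B04 on the right, for the 62 core genes, the 25 members at the ends of the block, the 421 other expressed genes of chromosome 6 and 10948 expressed protein-coding genes. The core curve is displaced to the left in B64, at a median of -0.47, and lies among the others in B04, at -0.04.

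The 6 members farthest down in B64 among those with a mean count of at least 100 were spread over the core and did not share a role. Fbln2 (chr6:91212455-91272540), a glycoprotein of the extracellular matrix, had 3531 and 3704 normalized counts in parental, 3510 and 3537 in B04 and 1518 and 1522 in B64, a log2 fold change of -1.25 (SE 0.07). Lhfpl4, a membrane protein known from inhibitory synapses, had 565 and 536 in parental, 599 and 502 in B04 and 279 and 302 in B64 (-0.92, SE 0.15). Itpr1, a calcium release channel of the endoplasmic reticulum, had 888 and 794 in parental, 1021 and 975 in B04 and 497 and 518 in B64 (-0.73, SE 0.12). In all of these the B64 libraries lay below the other 4. Iqsec1, an exchange factor for ARF proteins, followed at -0.71 (SE 0.10), Suclg2, a subunit of succinate-CoA ligase, at -0.68 (SE 0.08) and Nup210, a nuclear pore protein, at -0.64 (SE 0.14). On the TPM scale Iqsec1 overlapped between parental (21.2 and 15.7) and B64 (14.9 and 19.1).

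In the core 6 genes lay above 0 in B64. Camk1, a calcium-dependent kinase, had 2823 and 2972 in parental, 2994 and 2882 in B04 and 3287 and 3192 in B64 (0.16, SE 0.07). It lies less than 1 Mb from Brpf1 and Sec13, which were low. The others were Mitf, the melanocyte transcription factor (0.24), Irak2, a kinase of interleukin-1 receptor signalling (0.23), Srgap3 (0.05), Tada3 (0.03) and Creld1 (0.47), whose mean count was only 27.1.

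**Figure D4:**
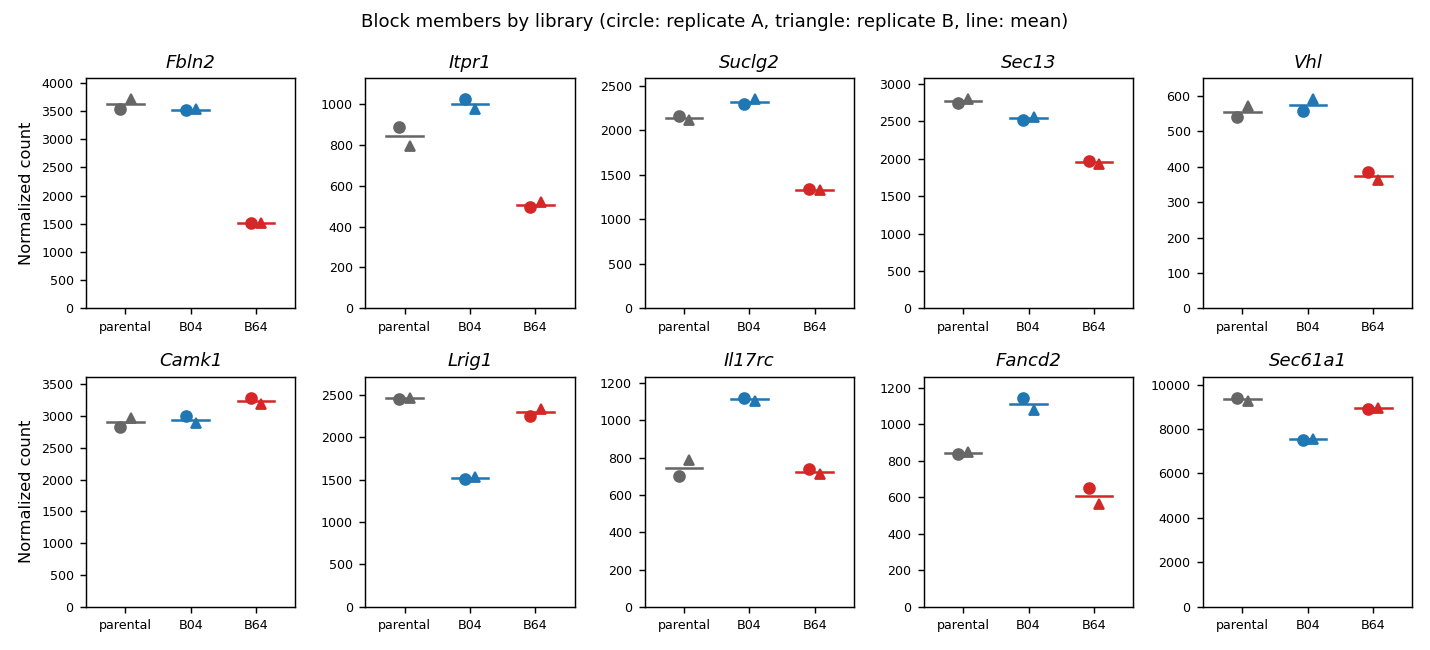
Normalized counts of 10 members in each library, with circles for replicate A, triangles for replicate B and a line at the group mean. Fbln2, Itpr1, Suclg2, Sec13, Vhl and Fancd2 are lowest in B64, Lrig1 and Sec61a1 are lowest in B04, Il17rc is highest in B04 and Camk1 is highest in B64.

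The B04 ratios were not used to choose the block. B04 counts did enter the minimum mean count, and B04 is compared with the same parental libraries. In B04 the members had a median of -0.04 and the core a median of -0.04. DESeq2 called 12 members lower and 6 higher in B04, where 12.9% of 13218 genes tested were called lower and 11.2% higher, so the share of members called in either direction (20.7%) was near that of all genes (24.1%). edgeR called 29 members in B04, where it called 34.6% of all genes. In the core DESeq2 called 5 lower and 3 higher (12.9% in all). The 2 medians turned to 0.07 and 0.09 with limma on log2(TPM + 1), where the median of all protein-coding genes was 0.06.

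The member lowest in B04 by adjusted p was Lrig1, which restrains growth factor receptors. It had 2458 and 2469 normalized counts in parental, 1511 and 1538 in B04 and 2255 and 2334 in B64, and fell in B04 by 0.69 on the log2 scale (SE 0.08, DESeq2 adjusted p = 1.7e-17). It lies in the core but was at -0.10 (SE 0.08) in B64. Sec61a1, the pore of the protein translocation channel, had 9407 and 9253 in parental, 7507 and 7552 in B04 and 8897 and 8959 in B64, and fell in B04 (-0.31, SE 0.05, DESeq2 adjusted p = 8.43e-08). Rpn1, a subunit of the complex that transfers sugar chains to new proteins at that channel, also fell in B04 (-0.31, SE 0.06, DESeq2 adjusted p = 4.55e-06). It was at -0.23 in B64. With limma on log2(TPM + 1) the adjusted p was 0.0508 for Sec61a1 and 0.219 for Rpn1.

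Higher in B04 were Il17rc, Abtb1 and Tmem40. Il17rc, a subunit of the interleukin-17 receptor, had 701 and 785 in parental, 1121 and 1102 in B04 and 738 and 712 in B64 (B04 0.58, SE 0.11, DESeq2 adjusted p = 2.47e-06). Abtb1, an ankyrin repeat protein, had 151 and 150 in parental, 296 and 301 in B04 and 211 and 192 in B64 (B04 0.99, SE 0.20, DESeq2 adjusted p = 1.34e-05). Tmem40 is the last gene of the block. It rested on few counts, 6.7 and 7.5 in parental, 42.0 and 60.1 in B04 and 7.9 and 12.6 in B64. Its log2 fold change in B04 was 2.85 (SE 0.68), and 2.57 without B04 replicate B. It passed the minimum mean count of 10 only through B04, where it was high, so this rise is a description and no test is read from it.

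Against B04 in place of parental, B64 gave a similar picture, with the reservation that its libraries had chosen the block. The member median was -0.27 and the core median -0.36, and DESeq2 called 39 members lower and 7 higher, where 11.1% of 12855 genes tested were called lower, 13.1% higher and 24.3% in either direction. Of the core genes, 37 were called lower and 1, Lrig1, higher. With the fragment-length class as a term, 29 members were called in all, in place of 46. Of all genes tested, 1625 of 12129 were then called, in place of 3118 of 12855. The medians were -0.27 for the members and -0.34 for the core.

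The largest role among the members was the endoplasmic reticulum and secretory pathway, with 12 genes. Of these 9 were called lower in B64, where 7.45% of all genes tested were, and 3 in B04, where 12.9% were, and the B64 median was -0.43. The same shares, with 8.87% called higher in B64 and 11.2% in B04, stand behind the counts of each role below, and nothing is read from the counts in B64, which chose the block. Emc3, part of a complex that inserts membrane proteins, had 2187 and 2218 in parental, 2178 and 2157 in B04 and 1406 and 1530 in B64 (-0.59, SE 0.08). Sumf1, which activates sulfatases, was at -0.48, Edem1, which hands misfolded proteins to degradation, at -0.47, and Jagn1, a membrane protein of the secretory route, at -0.42. The 3 called lower in B04 were Sec61a1, Rpn1 and Copg1, a vesicle coat protein, all of the centromere-side end, so these 3 lay outside the core. For Copg1 the value in B04 went from -0.26 to -0.17 with effective lengths (DESeq2 adjusted p = 0.151) and to -0.10 with limma on log2(TPM + 1) (adjusted p = 0.38).

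Of 7 genes of endosomes, lysosomes and autophagy, 3 were called lower in B64 and 2 higher. Rab7, the GTPase of late endosomes, had 8687 and 8691 in parental, 7782 and 7803 in B04 and 9484 and 9891 in B64. Its B64 libraries were the highest and its B04 libraries the lowest (B64 0.16, B04 -0.16, SE 0.05 each). Neither difference from parental stood at an adjusted p under 0.05 in DESeq2 when any single library of the groups compared was left out, and the value in B04 was -0.08 with effective lengths and -0.01 with limma on log2(TPM + 1). Arl8b, which moves lysosomes along microtubules, had 3846 and 3706 in parental, 3224 and 2987 in B04 and 2929 and 2888 in B64. It was low in B64 (-0.38) and in B04 (-0.28, SE 0.07 each). The call in B04 was lost with the fragment-length class as a term (-0.23, DESeq2 adjusted p = 0.0961). It was also lost with limma on log2(TPM + 1) (-0.36, adjusted p = 0.0898). By mean TPM in parental, Cnbp, which binds nucleic acids (573, SD 13.6), and Rab7 (526, SD 31.7) had the highest levels of the block, and both lie in the centromere-side end.

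DNA repair held 6 members, with 2 called lower and 1 higher in B64. Rad18, a ubiquitin ligase of damage bypass, had 1295 and 1236 in parental, 1260 and 1310 in B04 and 783 and 856 in B64 (-0.63, SE 0.10). Fancd2, the protein switched on by the Fanconi anaemia complex, had 835 and 845 in parental, 1145 and 1077 in B04 and 651 and 561 in B64. It was thus low in B64 (-0.47, SE 0.12) and rose in B04 (0.40, SE 0.11, DESeq2 adjusted p = 2.66e-03). That rise had an adjusted p of 0.074 without parental replicate A, 0.0507 without parental replicate B and 0.127 without B04 replicate A. Ogg1, which removes oxidised guanine, was at -0.30 (SE 0.14), Xpc, a damage sensor, at -0.19 (SE 0.17), and Hmces, which shields abasic sites and lies in the centromere-side end, at 0.27 (SE 0.09).

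Chromatin regulators and transcription factors were mixed. Of 6 chromatin genes 3 were called lower in B64, namely Setd5 (-0.52), Brpf1 (-0.53) and Rybp (-0.46), while Ruvbl1 (-0.01) and Tada3 (0.03) were not. Of 7 transcription factors and cofactors, Foxp1, Nr2c2 and Gata2 were called lower. Foxp1 had 2258 and 2074 in parental, 2687 and 2574 in B04 and 1623 and 1694 in B64, low in B64 (-0.39, SE 0.08) and higher in B04 (0.28, SE 0.08, DESeq2 adjusted p = 3.15e-03). The adjusted p in B04 was 0.14 without parental replicate B and 0.124 without B04 replicate A. Gata2, a blood and endothelial transcription factor of the centromere-side end, had 549 and 567 in parental, 367 and 362 in B04 and 383 and 375 in B64. On the TPM scale its groups overlapped, with 23.5 and 30.6 in parental, 19.2 and 25.5 in B04 and 18.4 and 31.0 in B64, and with effective lengths its log2 fold change was -0.36 in B04 (DESeq2 adjusted p = 0.416), in place of -0.61.

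Of 11 genes of RNA processing and translation 6 were called lower in B64, among them Trnt1, which adds the end of transfer RNAs (-0.60, SE 0.09), and Lsm3 of the splicing machinery (-0.55, SE 0.11). All 6 lay in the core. Of 6 mitochondrial and metabolic genes 4 were called lower in B64, namely Chchd6, Txnrd3, Chchd4 and Suclg2, and the median was -0.57. Suclg2 had 2155 and 2111 in parental, 2297 and 2346 in B04 and 1337 and 1324 in B64. In B04 the median of the 6 was 0.00.

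Of 4 ubiquitin and NEDD8 genes, Uba3 and Vhl were called lower in B64. Uba3, a subunit of the enzyme that activates NEDD8, had 4613 and 4549 in parental, 3855 and 3833 in B04 and 3164 and 3194 in B64 (-0.53, SE 0.06). Vhl, which marks hypoxia-inducible factor for destruction, had 539 and 571 in parental, 558 and 590 in B04 and 385 and 362 in B64 (-0.57, SE 0.14). Crbn, the target of thalidomide, was at -0.13 (SE 0.15). Of 5 genes of cytoskeleton, adhesion and matrix, Fbln2, Brk1 (-0.40) and Arpc4 (-0.24) were called lower.

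Of 8 signalling and receptor genes 1, Itpr1, was called lower in B64, and the median was -0.07. Of the 8, 6 lie in the core, among them Lrig1, Il17rc, Camk1 and Irak2. Whether this list differed from the others was not tested.

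Many members encode subunits of complexes whose other subunits are encoded elsewhere. Of 98 such partner genes tested, 6 were called lower and 8 higher in B64, and the median was 0.973 of the parental level. The share called was 14.3%, against 16.3% of all genes tested and 18.8% of expressed protein-coding genes. In B04, 31 of 98 were called (31.6%, against 24.1% of all genes tested), 26 of them lower, where 12.9% of all genes tested were called lower. Partners that changed in B64 by at least 0.5 on the log2 scale were Gabarapl1, an ATG8 protein of autophagy whose gene lies on chromosome 6 beyond the block (0.62, SE 0.08, DESeq2 adjusted p = 4.36e-13), Fancb of the Fanconi complex (-0.52, SE 0.19, DESeq2 adjusted p = 0.0378) and Wasf1 of the WAVE complex (-1.24, SE 0.47, DESeq2 adjusted p = 0.0482). Wasf1 had only 51.5 and 67.3 counts in parental and 26.1 and 24.2 in B64. For Sec13, 9 COPII partners had a median of -0.13, and for Emc3, 9 partners a median of -0.07. With the fragment-length class as a term 1 partner was called, where 340 of 12855 genes tested were called in B64. With single libraries left out fewer partners were called, as were fewer of all genes tested.

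**Figure D5:**
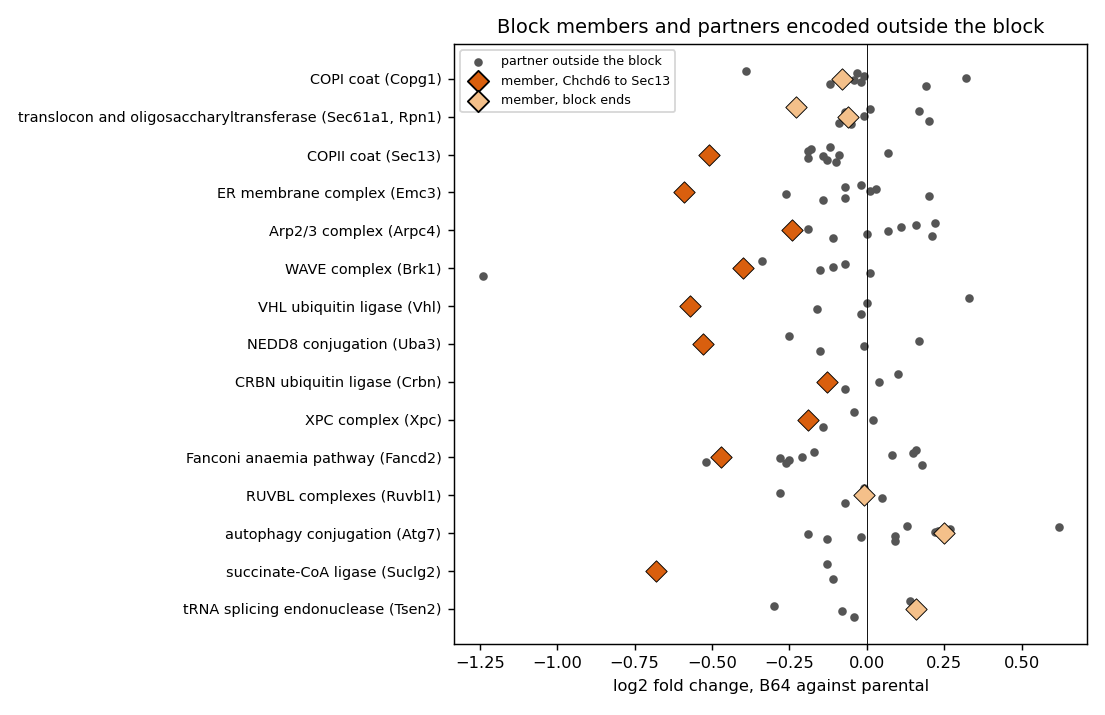
The log2 fold change of B64 against parental for partner genes of the complexes or pathways shown (grey) and for the block members that belong to them (diamonds, dark for core members). Sec13, Emc3, Vhl and Suclg2 lie to the left of nearly all of their partners, while all 98 tested partners have a median fold of 0.973.

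At the borders of the rule, the first members were Aplf (0.27 in B64), Efcc1 (0.56) and Rab43 (0.13), and among the last were Mkrn2 (-0.08) and Tmem40 (0.54). The genes just outside were Gfpt1 (-0.02), Antxr1 (0.26) and Prokr1 (0.35) before the block and Cand2 (0.27), Rpl32 (0.08) and Mbd4 (0.30) after it. The members just above the minimum count were Gm45140, with a mean of 10.1, and Klf15, with 11.6, and just below it were Syn2, with 9.84, and Vmn1r43, with 9.30. Gm45140 was listed at 0 in parental and B04 and had 22.0 and 38.6 counts in B64. It overlaps Rab43 on the same strand, so its count is uncertain.

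Of the 75 protein-coding genes under the minimum, 40 had no count in any library and 16 were vomeronasal receptor genes. The interval also held noncoding genes, 8 of them in the core above the minimum, with a median of -0.60 in B64 and -0.38 in B04. DESeq2 called 0 of these 8 in either line. Gt(ROSA)26Sor, the transcript of the locus widely used to insert transgenes, had 114 and 109 in parental, 83.9 and 90.6 in B04 and 82.7 and 68.3 in B64. Its counts lay below parental in both lines, but neither difference was called (DESeq2 adjusted p = 0.238 in B64 and 0.472 in B04). It is an antisense gene, and its reads cannot be assigned with certainty, because a strand-specific count is not stated. Several of the others were processed pseudogenes, such as Tpt1-ps3, whose reads can be shared with the parent gene. Another of these, Gm6565, had 0.0 and 117 counts in the B64 libraries.

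A further low stretch lay beyond the block on the same chromosome, from Kdm5a (start 120364124) to Pex5 (end 124415067). It was found on its B64 values and is given as a description. Its 15 genes had a median of -0.44 in B64 and -0.10 in B04, and 26 genes between the block and it had a median of -0.03. Il17ra, the partner of Il17rc in the interleukin-17 receptor, had 651 and 656 in parental, 610 and 707 in B04 and 342 and 350 in B64. Usp18, an interferon-stimulated gene, was the exception at 0.56. Along the whole genome, 9 runs of at least 10 expressed genes had a 5-gene running median under -0.23 in B64. The run inside the block, of 45 genes, had the most genes, followed by a run of 29 genes on chromosome 1. The latter was low in both lines (-0.34 in B64 and -0.32 in B04). The bound was set from the B64 median of the core itself, so this ranking is a description.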

How the data were processed

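The authors aligned paired-end poly(A) RNA-seq reads to mm10 with STAR and deposited RSEM gene tables of expected counts, TPM and effective lengths, 1 per library. Expected counts were rounded. Depth is given with the results. As in the study's own methods, DESeq2 (version 1.42.0, run in R 4.3.3) was used, fitted to all 53801 genes and 6 libraries with group as the only term, and p-values were adjusted by the Benjamini-Hochberg method over all genes tested, with calls at 0.05. Fold changes were not shrunken. edgeR 4.0.16 and limma 3.58.1 on log2(TPM + 1) or log2(TPM + 0.1) were alternatives, and the scripts were tested on simulated data. Per-library ratios used a pseudocount of 0.5. Symbols and positions were taken from GENCODE M21 (99.7% matched) and promoters from RefSeq.

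The members and lists were chosen with earlier results of these data known. Genes were named by rule: the 6 lowest and 4 highest members in B64 with a mean count of at least 100, 3 genes inside and outside each border, the 3 lower and 3 higher members of smallest adjusted p in B04, 2 members per role by TPM, members with partner lists, partners called with a change of at least 0.5, and genes next to the count minimum. Others named were chosen after their values were seen. A gene that these rules name is not reported here. Replicates of a group differed by more than sampling noise.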

Additional observations from a re-analysis of the deposited data

Results flagged for a closer look

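For 30 of the genes named by rule, the effects in B64 and B04 differed by the direct contrast of B64 with B04 (DESeq2, all genes adjusted together). In that contrast 24.3% of 12855 genes tested and 46 of 87 members were called. B64 had chosen the block, so for its members the differences listed are descriptions. Tmem40 also passed the minimum mean count only through B04. Lower in B64 than in B04, in log2, were Tmem40 (-2.31), Fbln2 (-1.21), Itpr1 (-0.97), Lhfpl4 (-0.92), Nup210 (-0.92), Fancd2 (-0.87), Suclg2 (-0.80), Lsm3 (-0.70), Foxp1 (-0.67), Iqsec1 (-0.64), Il17rc (-0.62) and Vhl (-0.62). With smaller differences followed Abtb1 (-0.57, but 0.11 with effective lengths and 0.07 with limma on log2(TPM + 1) or log2(TPM + 0.1)), Chchd6 (-0.56), Emc3 (-0.56), Ogg1 (-0.44), Sec13 (-0.38), Crbn (-0.37), Brk1 (-0.29) and Uba3 (-0.27). Higher in B64 than in B04 were Lrig1 (0.59), Atg7 (0.35), Rab43 (0.33), Rab7 (0.31), Hmces (0.30), Sec61a1 (0.25), Copg1 (0.18) and, just before the block, Gfpt1 (0.32). Of the partner genes, which the block's rule did not use, Fancb was lower in B64 than in B04 (-0.84, DESeq2 adjusted p = 8.51e-05) and Gabarapl1 higher (0.71, DESeq2 adjusted p = 3.89e-17).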

How the results depend on the processing

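With a fragment-length class term, calls fell to 11 members and 340 of 12855 genes tested in B64 against parental. In B64 against B04 they fell to 29 members and 1625 of 12129 genes tested. Of the partner genes 1 was called. The member medians were -0.27 in both comparisons of B64 and the core medians -0.40 and -0.34. The cause of the lost calls was not tested. With effective lengths as offsets the medians were -0.21 in B64 and -0.01 in B04, and 7 partner genes were called. Of all genes tested, 1671 of 12855 were then called in B64. With limma on log2(TPM + 1) the medians were -0.16 and 0.07. It called 8 members in B04, where 1966 of 11153 genes were called, and 4 partner genes. In B64 it called 1258 of 11153 genes. On log2(TPM + 0.1) the medians were -0.17 and 0.07, with 29 members called in B64, 8 in B04 and 4 partner genes. There 1244 of 11153 genes were called in B64 and 1968 in B04. edgeR called 29 members in B04, where it called 34.6% of all genes, and 22 partner genes. In B64 it called 24.6% of all genes. DESeq2 without independent filtering called 9 partner genes, where 1909 of 20479 genes were called in B64. With single libraries left out, 33 to 40 members were called in B64, 11 to 17 in B04 (lowest without parental replicate B) and 31 to 45 in B64 against B04, and 2 to 9 partner genes. A lone library was assumed to vary like the others.

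The first low gene started at 89383146 with genes of at least 100 counts and with absolute deviations, at 88835914 in B64 against B04 (added after seeing the data), and at 89643988, 90369492 and 90369492 for running medians over 5, 11 and 21 genes. The last started at 124396816, 113728062, 124624625, 113307137, 113366025 and 113514874 in the same order. Each B64 library alone gave the same borders as both. Abtb1 in B64 against B04 turned to 0.11, 0.07 and 0.07, and the core median in B04 to 0.03, 0.09 and 0.10, with effective lengths and limma at both pseudocounts. Without single libraries the core median in B64 ran from -0.47 to -0.45. With the fragment-length class 11 core genes were called lower in B64, in place of 39, where 340 of 12855 genes tested were called.

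Replicate letters are shared by the groups, but same-letter deviations correlated at 0.23, 0.07 and -0.11 over 10055 genes, so they were not taken as pairs. With the replicate block 41 members were called in B64, 17 in B04, 44 in B64 against B04, and 10 partner genes. Of all genes tested, 1716 of 12492, 2655 of 12129 and 2638 of 12129 were called, in the same order of comparisons.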

Other observations

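Beyond Pex5 chromosome 6 was high in B64. The 117 expressed protein-coding genes from Clstn3 to the end of the chromosome had a median log2 fold change of 0.24 in B64 and 0.02 in B04, with library medians of 0.24 and 0.26 in B64 and 0.02 and 0.03 in B04. In B64 46 were called higher and 3 lower by DESeq2, where 8.87% of genes tested were called higher and 7.45% lower. This stretch was chosen after its values were seen, and the count is a description.

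The clones had other low blocks. The 89 expressed genes of an interval on chromosome 3 had a median of -0.35 in B04 and -0.05 in B64, the reverse of the block on chromosome 6. In an interval on chromosome 1, 85 genes had medians of -0.32 in B04 and -0.25 in B64. The first interval had been picked from these same data as low in B04 and the second as low in both lines, so their low medians are descriptions.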
